A study of Rattus norvegicus with 16 samples.

Results

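The genes described here are 10 macrophage markers, taken by symbol from a table of 17147 genes measured in the supraspinatus muscle of Sprague Dawley rats: Cd68, Emr1 (the older symbol of Adgre1), Aif1, Lyz2, Csf1r, Csf1, Trem2, Cd14, Mrc1 and Cd163. They put general macrophage genes beside Mrc1 and Cd163, which are used as markers of resident-type macrophages. All 10 were found under these symbols. RNA was sequenced in 16 libraries: 4 from unoperated control muscle (0 days) and 4 each from muscle taken 10, 30 and 60 days after an operation. The operation tore the full thickness of the supraspinatus on both sides and also cut out part of the suprascapular nerve, so tear and denervation cannot be told apart, and no sham-operated group is used here. The labels give neither the age nor the sex of the rats, and they do not say which libraries came from the same animal, so p-values measure the spread between these libraries.

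Macrophages are phagocytes that clear dead cells and debris and steer repair. In skeletal muscle some live in the connective tissue at rest, and others arise from blood monocytes that enter after injury. They depend on colony-stimulating factor 1, the ligand encoded by Csf1, which signals through the receptor kinase Csf1r. Macrophages of the perimysium and epimysium in uninjured muscle are classically recognised by the scavenger receptor CD163 and the mannose receptor CD206, the product of Mrc1, whereas CD68, a lysosomal membrane glycoprotein, is found in nearly all macrophages. In whole muscle, more macrophages and more of a transcript per macrophage cannot be told apart.

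Library totals ran from 17184281 to 39903266 fragments, and the 4 libraries at 60 days had the lowest totals of all. Levels are given as CPM, the depth-scaled fragment count of a gene, with TMM factors that hold most genes level between libraries. CPM carry no correction for gene length, so levels are compared between libraries and never between genes. A gene was called higher or lower at an adjusted p under 0.05 in edgeR's quasi-likelihood test with Benjamini-Hochberg adjustment over all 11658 genes tested. Every member had at least 8 fragments in every library and passed the filter on low counts, 9 of them in all 16 libraries on their own. With library totals in place of TMM factors, the median over all genes tested moved to (log2) 0.72, 0.54 and 0.45 at 10, 30 and 60 days against 0 days, to -0.13 at 30 against 10 days and to -0.26 at 60 against 10 days. Among genes called against 0 days, 53.1%, 52.2% and 50.7% were higher with TMM factors, and 87.4%, 84.1% and 82.7% with library totals. Each fold change is thus measured against most other genes.

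Against unoperated muscle, 8 of the 10 members were higher at 10 days, and all 10 were higher at 30 and at 60 days; none was lower at any of these times. Of all genes tested, 33.3% were called higher at 10 days, 33.7% at 30 days and 29.9% at 60 days (lower: 29.4%, 30.9% and 29.1%). The members had median log2 fold changes of 1.54, 1.88 and 1.79, where the medians over all genes were 0.061, 0.046 and 0.04. With library totals all 10 were called higher at each of the 3 times. At that scaling 80.2%, 75.1% and 69.9% of all genes tested were called, and 87.4%, 84.1% and 82.7% of those were higher. The members that were not called at 10 days were Cd163 and Cd14. The 3 comparisons share the unoperated libraries, so they are not independent of each other.

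**Figure D1:**
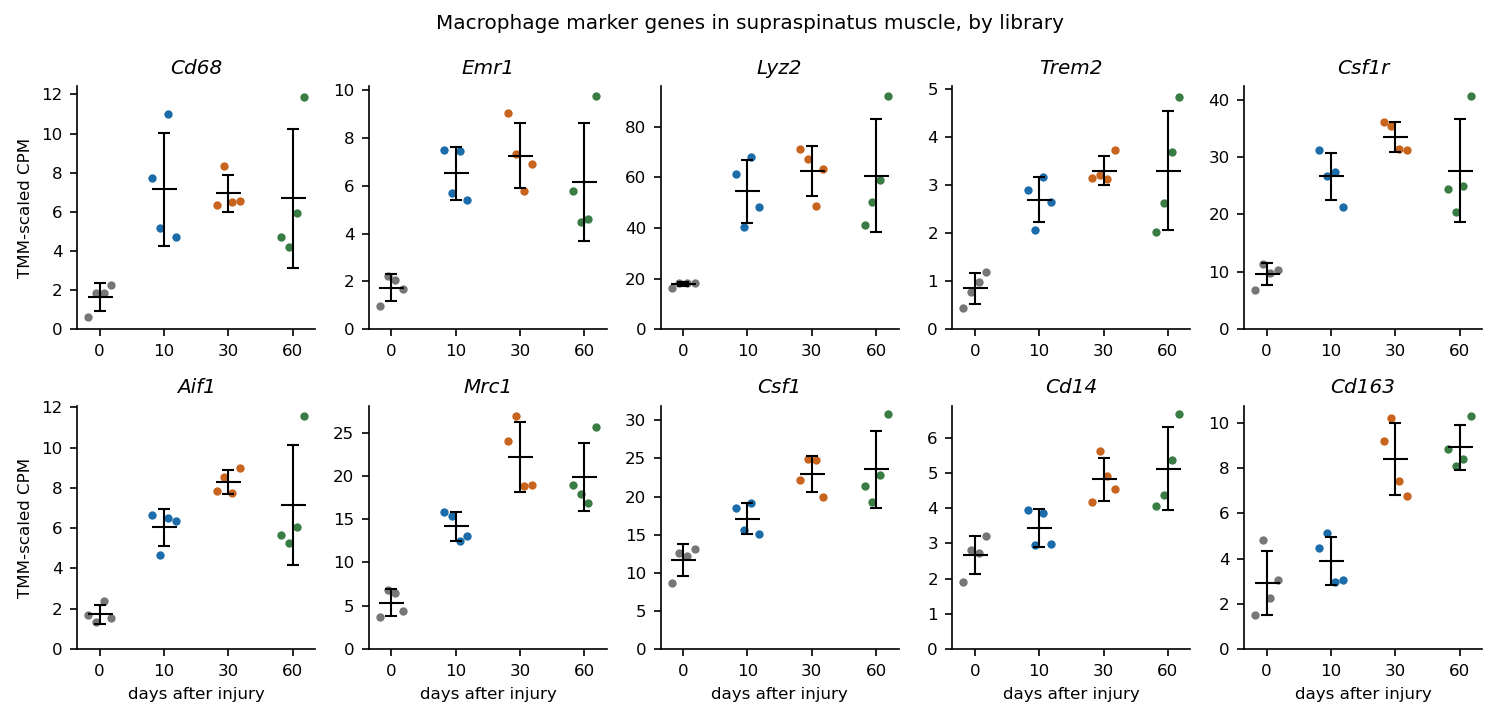
TMM-scaled CPM (vertical axes, from 0) of each of the 10 members in the 4 libraries of each time (points, replicates 1 to 4 from left to right), with mean and SD (bars), in order of the share of the 30-day rise present at 10 days. Cd68 stood at 0.619 to 2.25 CPM at 0 days and at 4.73 to 11.0 at 10 days, while Cd163 stood at 2.97 to 5.13 at 10 days and at 6.76 to 10.2 at 30 days.

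The sequences just upstream of several members are shown because genes of this kind share regulators: PU.1, the product of Spi1, binds a GAGGAA core in many myeloid promoters, and AP-1 binds TGANTCA. RefSeq promoter sequences of the rat assembly GRCr8 matched 8 of the 10 members. In the 250 bases before the annotated start, GAGGAA was found on either strand in 7 of these 8 and in 23.2% of 27457 promoters of the same length. TGANTCA was found in 1 of the 8, that of Cd68, and in 6.36% of all. The window of Cd163 held neither, which says only that these letters are absent from it. Below are the windows of Cd68 and Emr1, general markers, and of Mrc1 and Cd163, the resident-type pair, read 5′ to 3′ on the gene's strand, with matches of either motif on either strand in capitals. They lie at chr10:54882442-54882691 (minus strand), chr9:2329190-2329439 (plus strand), chr17:82157475-82157724 (plus strand) and chr4:158770524-158770773 (plus strand). A match is a description of the letters and not a binding site.
Cd68: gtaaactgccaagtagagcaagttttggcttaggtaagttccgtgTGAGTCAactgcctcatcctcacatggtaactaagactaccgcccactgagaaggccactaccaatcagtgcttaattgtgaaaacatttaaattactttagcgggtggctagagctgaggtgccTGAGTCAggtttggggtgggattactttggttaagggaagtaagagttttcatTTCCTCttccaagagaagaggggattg
Emr1: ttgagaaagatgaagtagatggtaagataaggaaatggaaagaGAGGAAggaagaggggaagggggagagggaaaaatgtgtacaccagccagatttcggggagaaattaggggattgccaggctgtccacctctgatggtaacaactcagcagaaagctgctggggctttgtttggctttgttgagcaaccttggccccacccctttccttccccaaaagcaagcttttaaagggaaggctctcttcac
Mrc1: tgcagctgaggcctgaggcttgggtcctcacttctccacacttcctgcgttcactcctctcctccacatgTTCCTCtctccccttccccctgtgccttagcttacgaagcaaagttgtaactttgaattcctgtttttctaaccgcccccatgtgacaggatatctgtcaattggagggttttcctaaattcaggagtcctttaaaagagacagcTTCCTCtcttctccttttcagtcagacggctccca
Cd163: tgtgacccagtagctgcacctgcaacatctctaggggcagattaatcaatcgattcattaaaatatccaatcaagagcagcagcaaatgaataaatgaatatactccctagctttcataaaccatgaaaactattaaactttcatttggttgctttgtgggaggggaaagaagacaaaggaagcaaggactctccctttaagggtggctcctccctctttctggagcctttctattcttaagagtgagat

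Cd68, the lysosomal glycoprotein used as a general macrophage marker, was higher at all 3 times, with its highest mean at 10 days. In replicates 1 to 4 it stood at 0.619, 1.87, 1.87 and 2.25 CPM at 0 days, 7.75, 5.16, 11.0 and 4.73 at 10 days, 6.34, 8.36, 6.52 and 6.55 at 30 days and 4.70, 4.21, 5.96 and 11.9 at 60 days. All 12 operated libraries lay above the 4 unoperated ones, with unoperated replicate 1 far below its group and replicate 4 at 60 days far above its group. The log2 fold changes against 0 days were 2.09 ± 0.38 (adjusted p 0.000182), 2.05 ± 0.38 (0.000233) and 2.00 ± 0.39 (0.000405) in edgeR. Between 10 and 30 days the difference was -0.04 ± 0.34 (edgeR adjusted p 0.933, 95% interval -0.75 to 0.67). The medians were 6.45 CPM at 10 days, where replicate 3 stood at 11.0, and 6.54 at 30 days.

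Emr1 encodes the rat counterpart of F4/80, an adhesion receptor of the macrophage surface. It stood at 0.956 to 2.24 CPM at 0 days, 5.41 to 7.52 at 10 days, 5.76 to 9.03 at 30 days and 4.49 to 9.73 at 60 days. In edgeR its log2 fold changes were 1.88 ± 0.27 (adjusted p 1.40e-05), 2.04 ± 0.27 (7.18e-06) and 1.81 ± 0.27 (3.85e-05). Aif1, which encodes the calcium-binding protein IBA1 of macrophages and microglia, stood at 1.32 to 2.41 CPM at 0 days, 4.67 to 6.64 at 10 days, 7.76 to 9.01 at 30 days and 5.27 to 11.6 at 60 days. Its log2 fold changes in edgeR were 1.799 ± 0.25 (adjusted p 8.04e-06), 2.25 ± 0.25 (8.24e-07) and 2.05 ± 0.25 (3.88e-06), the 30-day value being the largest among the 10 members at that time. At 30 days every library of Aif1 lay above every library at 10 days, but the difference of 0.46 ± 0.22 missed the threshold (edgeR adjusted p 0.0946). It passed with limma-voom (adjusted p 0.0427), with the 30- and 10-day groups fitted alone (0.0148) and without replicate 4 at 60 days (0.0199).

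Lyz2 encodes lysozyme, a bacteriolytic enzyme made by macrophages, monocytes and neutrophils. It was the steadiest member in unoperated muscle, at 16.5 to 18.4 CPM, and stood at 40.3 to 68.0, 48.6 to 71.1 and 41.0 to 92.4 CPM at 10, 30 and 60 days. The log2 fold changes in edgeR were 1.61 ± 0.22 (adjusted p 1.06e-05), 1.81 ± 0.22 (4.06e-06) and 1.77 ± 0.22 (7.57e-06). Lyz2 has a related neighbour, Lyc2, with 0 to 6 fragments per library at 0 days and 5 to 94 in the operated libraries, where Lyz2 had 890 to 2833, so fragments that match both genes could shift the Lyz2 values slightly.

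Csf1r, the receptor on which macrophage survival depends, and its ligand Csf1 were both higher at all 3 times. Csf1r stood at 6.92, 11.3, 9.86 and 10.3 CPM at 0 days, 31.2, 26.6, 27.4 and 21.3 at 10 days, 36.1, 35.4, 31.3 and 31.2 at 30 days and 24.4, 20.5, 24.9 and 40.7 at 60 days. Its groups at 10, 30 and 60 days lay wholly above 0 days, and they overlapped each other, those at 10 and 30 days at a single library on each side. The log2 fold changes against 0 days were 1.47 ± 0.19 (adjusted p 5.98e-06), 1.797 ± 0.19 (8.68e-07) and 1.52 ± 0.19 (7.55e-06) in edgeR.

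Csf1, which is made by fibroblasts, endothelial cells and other stromal cells as well as by macrophages, stood at 8.66, 12.7, 12.3 and 13.1 CPM at 0 days, 18.5, 15.6, 19.1 and 15.1 at 10 days, 22.1, 24.9, 24.8 and 19.9 at 30 days and 21.4, 19.2, 22.9 and 30.8 at 60 days. It was higher than at 0 days by log2 0.55 ± 0.15 (adjusted p 0.00453), 0.97 ± 0.15 (3.29e-05) and 1.01 ± 0.15 (3.23e-05) in edgeR, less than Csf1r at each time; the difference between the pair was not tested. Csf1 was higher again at 30 than at 10 days (0.43 ± 0.15, edgeR adjusted p 0.0245). Il34, the other ligand of the receptor, did not pass the test with TMM factors (0.017, -0.013 and 0.003) and was called higher at all 3 times with library totals (0.67, 0.48 and 0.41, edgeR adjusted p 0.000428, 0.00723 and 0.02).

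Trem2 encodes a receptor for lipids and cell debris that signals through the adaptor TYROBP. With 8 to 25 fragments per library at 0 days it was the member with the fewest fragments, and it stood at 0.450, 0.770, 0.982 and 1.20 CPM at 0 days, 2.90, 2.07, 3.16 and 2.64 at 10 days, 3.15, 3.21, 3.12 and 3.74 at 30 days and 2.03, 2.64, 3.68 and 4.84 at 60 days. The operated libraries all lay above the unoperated ones, and the log2 fold changes were 1.65 ± 0.28 (adjusted p 8.33e-05), 1.94 ± 0.28 (1.73e-05) and 1.94 ± 0.29 (2.77e-05) in edgeR. Tyrobp itself was higher by 1.55, 1.93 and 1.76 at 10, 30 and 60 days.

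Cd14, the surface co-receptor that hands bacterial lipopolysaccharide to the TLR4 complex, had the smallest fold changes of the members. It stood at 1.91, 2.82, 2.72 and 3.21 CPM at 0 days, 3.95, 2.96, 3.86 and 2.98 at 10 days, 4.18, 5.63, 4.92 and 4.54 at 30 days and 4.06, 4.37, 5.38 and 6.67 at 60 days. The 10-day libraries overlapped the unoperated ones, and the 30- and 60-day libraries lay above both. Cd14 differed from 0 days by log2 0.36 ± 0.19 (adjusted p 0.112), 0.85 ± 0.19 (0.000924) and 0.93 ± 0.19 (0.000586) in edgeR. With library totals the 10-day value was 1.02 and was called (edgeR adjusted p 0.00018). At 30 against 10 days it was higher by 0.49 ± 0.18 (edgeR adjusted p 0.0354), and by 0.32 with library totals, which was not called (0.183).

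Mrc1, the mannose receptor, was already higher at 10 days and was higher again at 30 days. It stood at 3.65, 6.86, 6.51 and 4.41 CPM at 0 days, 15.8, 15.3, 12.5 and 13.1 at 10 days, 24.1, 26.9, 18.8 and 18.9 at 30 days and 18.9, 17.9, 16.9 and 25.6 at 60 days. Each group from 10 days on lay above 0 days, and the 30- and 60-day libraries lay above all 10-day libraries. The log2 fold changes against 0 days were 1.39 ± 0.19 (adjusted p 1.05e-05), 2.04 ± 0.19 (2.10e-07) and 1.88 ± 0.19 (8.93e-07) in edgeR. At 30 against 10 days Mrc1 was higher by 0.65 ± 0.18 (edgeR adjusted p 0.00714).

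Cd163, the scavenger receptor for haemoglobin bound to haptoglobin, was higher at 30 and 60 days. It stood at 1.52, 4.81, 2.28 and 3.07 CPM at 0 days, 4.47, 5.13, 2.97 and 3.04 at 10 days, 9.18, 10.2, 7.44 and 6.76 at 30 days and 8.85, 8.08, 8.42 and 10.3 at 60 days. The 10-day libraries overlapped the unoperated ones, and the 30- and 60-day libraries all lay above both. Its log2 fold changes against 0 days were 0.39 ± 0.27 (adjusted p 0.218), 1.502 ± 0.27 (0.000135) and 1.59 ± 0.27 (0.000119) in edgeR, so Cd163 was not called at 10 days. That 10-day result depends on the processing: it was 1.05 with library totals (edgeR adjusted p 0.00217) and 0.76 without unoperated replicate 2 (0.0145), the highest unoperated library of Cd163. At 30 against 10 days Cd163 was higher by 1.11 ± 0.26 (edgeR adjusted p 0.00206), the largest difference of any member in this comparison.

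**Figure D2:**
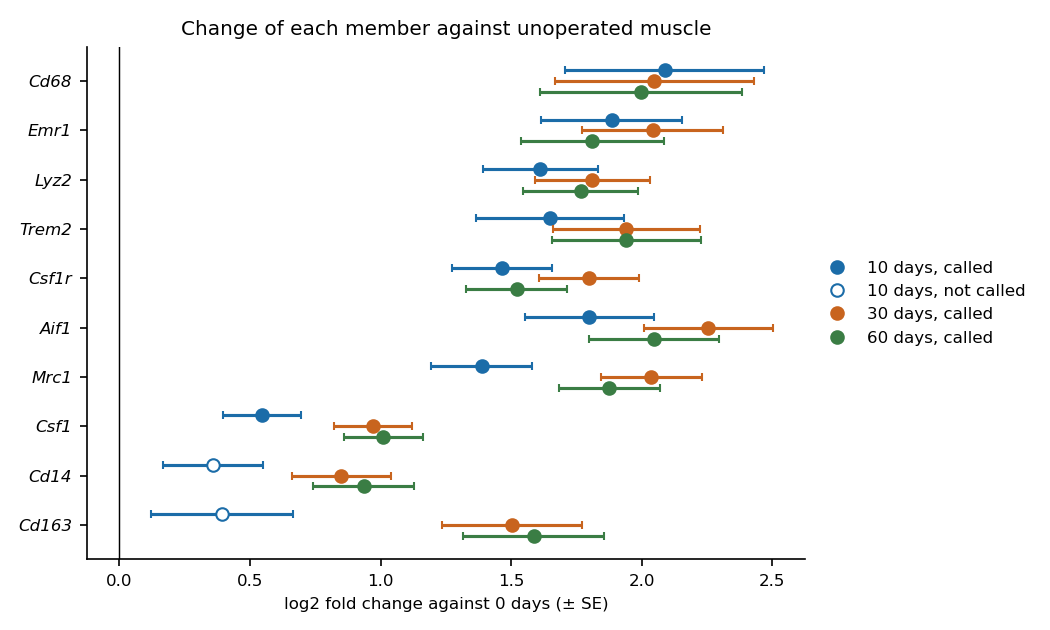
Log2 fold change against 0 days (horizontal axis) of each member at 10, 30 and 60 days, with SE from edgeR; filled points passed an adjusted p of 0.05 and open points did not. The open points are Cd14 (0.36) and Cd163 (0.39) at 10 days, and the spread between times is widest for Cd163.

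Set side by side, the members differed in how much of the 30-day rise was present at 10 days. The share of the rise in mean CPM from 0 to 30 days was 104% for Cd68, 86.6% for Emr1, 82.0% for Lyz2, 75.1% for Trem2, 71.2% for Csf1r and 65.7% for Aif1. It was 52.3% for Mrc1, 48.1% for Csf1, 35.7% for Cd14 and 17.97% for Cd163. These shares are of group means, and no spread was computed for them. With library totals the shares ran from 119.6% for Cd68 to 36.04% for Cd163. Those of Cd14 and Csf1 moved to 67.4% and 74.6%, above that of Mrc1 (65.3%). The highest group mean fell at 10 days for Cd68, at 30 days for 6 members and at 60 days for Csf1, Cd14 and Cd163. With library totals that of Csf1 fell at 30 days. Without replicate 4 at 60 days, the 60-day means of Csf1 (21.2 CPM) and Cd14 (4.60) lay below their 30-day means (22.9 and 4.82). The 60-day mean of Cd163 was then 8.45 CPM, against 8.40 at 30 days.

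Between 30 and 10 days, 4 of the 10 members were higher and none was lower: Cd163, Mrc1, Cd14 and Csf1. Of all genes tested, 23.0% were called higher and 24.3% lower in this comparison. The median of the members was 0.38 and that of all genes 0.033. Of the 6 members that were not called, Cd68 was at -0.04, and the other 5 lay between 0.16 (Emr1) and 0.46 (Aif1). The calls of Cd163 and Mrc1 held with library totals, while those of Csf1 and Cd14 were lost (edgeR adjusted p 0.187 and 0.183), as they were with the L or R of the library titles as a covariate (0.073 and 0.116), a letter whose meaning is not given. The calls of Csf1 and Cd14 were also lost when replicate 2 or 4 at 10 days or replicate 2 or 3 at 30 days was left out (edgeR adjusted p 0.0641 to 0.113), which left 2 members called.

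At 60 against 10 days the same 4 genes were the ones called higher, by log2 1.19 ± 0.26 for Cd163 (edgeR adjusted p 0.00083), 0.58 ± 0.18 for Cd14 (0.0126), 0.49 ± 0.18 for Mrc1 (0.0276) and 0.47 ± 0.15 for Csf1 (0.0118). Both comparisons share the 10-day libraries. Of all genes tested, 29.1% were called higher and 31.9% lower. The other 6 members ran from -0.091 (Cd68) to 0.29 (Trem2), and for Csf1r the 95% interval was -0.33 to 0.44. With library totals only Cd163 was called (0.95, edgeR adjusted p 0.00441). Without replicate 4 at 60 days, Cd163 (1.13, 0.00285) and Csf1 (0.33, 0.048) kept their calls, and Mrc1 (0.0979) and Cd14 (0.0527) lost theirs. The call of Mrc1 was also lost without replicate 3 or replicate 4 at 10 days (edgeR adjusted p 0.0759 and 0.0676).

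Between 60 and 30 days no member was called by edgeR, and none had an unadjusted p under 0.05; DESeq2 and limma-voom also called 0. Of all genes tested, 10.3% were called higher and 12.4% lower. Differences ran from -0.28 (Csf1r) to 0.086 (Cd14), and the 60-day means were 82.4% to 106% of the 30-day means. Without replicate 4 at 60 days, Csf1r (-0.51, edgeR adjusted p 0.0198) and Aif1 (-0.53, 0.0374) were called lower at 60 days.

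Resident-type genes were set against general ones inside each library, as the ratio of fragments of Mrc1 or Cd163 to those of Cd68, Emr1 or Csf1r. Such a ratio does not move with library scaling, and its size depends on gene lengths, so only its change is read. Relative to Cd68, Cd163 stood at 1.21 to 2.57 at 0 days, 0.269 to 0.994 at 10 days, 1.03 to 1.45 at 30 days and 0.869 to 1.92 at 60 days. Relative to Csf1r, it stood at 0.220 to 0.425, 0.108 to 0.193, 0.217 to 0.288 and 0.254 to 0.395. All 4 libraries at 10 days lay below all 4 at 0 days in both ratios, and also for Cd163 to Emr1.

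The log2 ratio of Cd163 changed from 0 to 10 days by -1.66 against Cd68, -1.45 against Emr1 and -0.98 against Csf1r. Each had an exact two-sided permutation p of 0.0286, the smallest that 4 against 4 allows, and an adjusted p of 0.114 over the 24 ratio tests, so none passed the correction. From 10 to 60 days the ratio differed against Emr1 by 1.36 and against Csf1r by 1.21, with the 60-day libraries above all 10-day libraries (exact p 0.0286, adjusted 0.114). Against Cd68 it differed by 1.37 (exact p 0.0571, adjusted 0.137). At 30 and 60 days the ratios of Cd163 differed from 0 days by -0.57 to 0.23, with overlapping groups.

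For Mrc1 the same ratios were formed. From 0 to 10 days they changed by -0.72 against Cd68, -0.51 against Emr1 and -0.042 against Csf1r (exact p 0.171, 0.0571 and 0.857). Mrc1 to Csf1r was 0.454 to 0.613 at 10 days and 0.631 to 0.877 at 60 days, a log2 difference of 0.46 with no overlap (exact p 0.0286, adjusted 0.114). None of the 24 ratio tests passed after adjustment. No ratio was tested between 30 and 10 days. There the ratios of Cd163 at 30 days lay above all those at 10 days for each of Cd68, Emr1 and Csf1r. The ratios of Mrc1 overlapped between these times. These ratios were the only test of whether the resident-type genes took another course than the general ones. They had little room to pass: the smallest exact p of 4 against 4, 0.0286, came to an adjusted 0.114 over the 24 tests. A different course was therefore neither established nor excluded here.

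**Figure D3:**
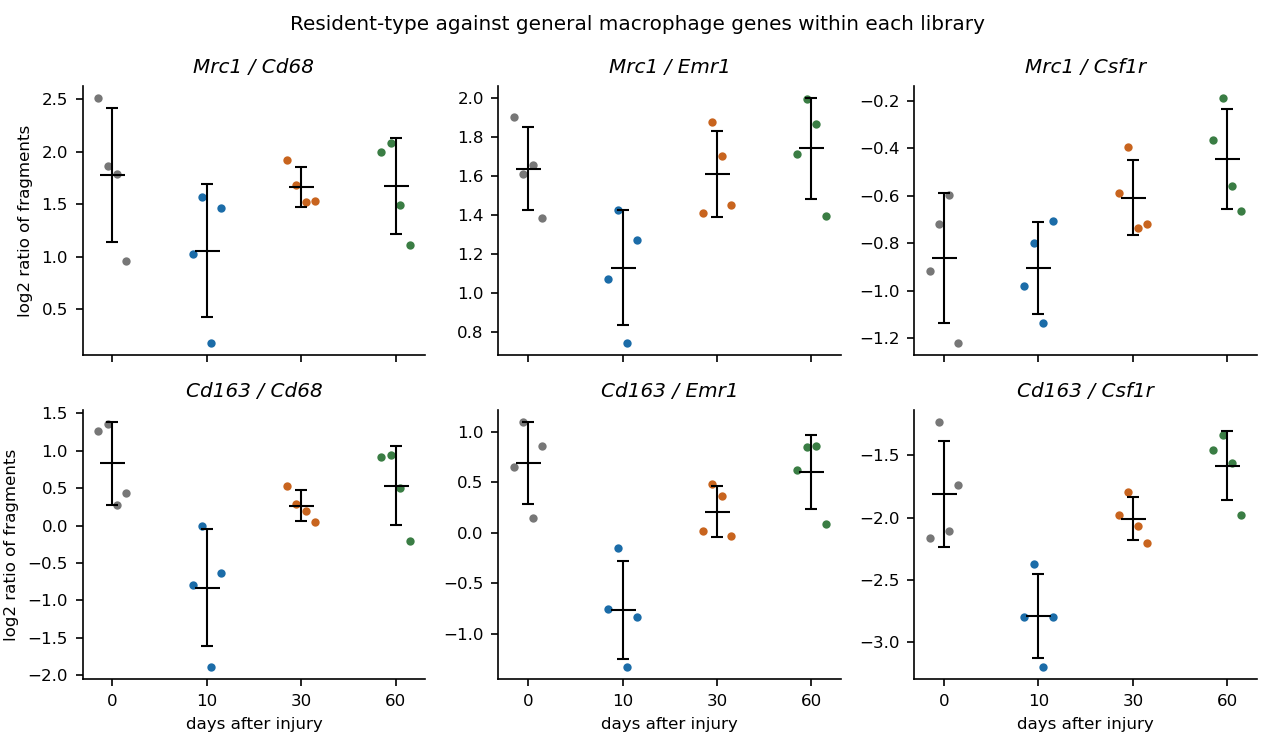
Log2 ratio of fragments of Mrc1 (top) or Cd163 (bottom) to Cd68, Emr1 and Csf1r within each of the 16 libraries (points) by days after injury, with mean and SD (bars); axes differ between panels. The Cd163 ratios are lowest at 10 days, at 0.108 to 0.193 fragments of Cd163 per fragment of Csf1r against 0.220 to 0.425 at 0 days.

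Further macrophage genes were followed as lists. Of 14 tested genes linked to resident-type macrophages (Mrc1 and Cd163 not included), 8 were higher and 1 lower at 10 days, 12 and 1 at 30 days and 13 and 0 at 60 days against 0 days. Between 30 and 10 days 8 of the 14 were higher and 2 lower, with a median of 0.56; with library totals 6 were higher and 2 lower, with a median of 0.40. Of 20 general phagocyte genes, 2 were higher and 2 lower in that comparison, with a median of 0.21. Against 0 days 19, 18 and 18 of those 20 were higher at 10, 30 and 60 days, with medians of 1.60, 1.92 and 1.61. The lists are described by their counts, and no test compared them with each other.

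Within the resident-type list, Lyve1, a hyaluronan receptor that lymphatic endothelium also makes, was not called at 10 days (-0.23) and was higher at 30 days (0.80, edgeR adjusted p 0.000745) and 60 days (1.40, 4.97e-06). With library totals its 10-day value turned to 0.43 and was called (edgeR adjusted p 0.0435). Clec10a, a galactose-binding lectin, was higher by 1.59, 2.30 and 2.16 at the 3 times, and the folate receptor Folr2 by 1.09, 1.57 and 1.88. The iron exporter Slc40a1 was higher by 1.33, 1.88 and 1.70. Siglec1, the sialic acid receptor CD169, was higher than at 0 days by 2.67 at 10 days and fell from 10 to 30 days (-0.79, edgeR adjusted p 0.0214), as was Cd5l (-2.07). The haem-degrading enzyme Hmox1 was higher at each time (2.24, 2.05 and 1.29) and lower at 60 than at 10 days (-0.95). Mertk, a receptor for the clearance of dead cells, was the gene of this list that was lower than in unoperated muscle at 30 days (-0.53), and Gas6, its ligand, was the lower gene at 10 days (-0.46). Neither call held with library totals, where Mertk was at -0.029 (edgeR adjusted p 0.907) and Gas6 turned to 0.19 (0.315), or with upper-quartile factors (0.091 and 0.0635).

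Among general phagocyte genes, the integrin subunit Itgam was higher by 1.88, 1.92 and 1.88 at 10, 30 and 60 days, and its value between 30 and 10 days was 0.038. The pore-forming protein gene Mpeg1 was higher by 3.46, 2.61 and 1.66 and fell from 10 to 30 days (-0.85, edgeR adjusted p 0.048; 0.0697 with upper-quartile factors). The oxidase subunit Cybb (2.39, 1.98 and 1.99), the tetraspanin Cd53 (2.07, 2.32 and 2.06) and the Fc receptors Fcgr1a (2.16, 2.17 and 1.93) and Fcgr2b (1.33, 2.099 and 1.90) were higher at all 3 times. Ncf1, an oxidase subunit, was the phagocyte gene called lower, by -1.25, -0.96 and -0.56 at the 3 times. Its 60-day call was lost with library totals (-0.15, edgeR adjusted p 0.489) and with upper-quartile factors (-0.42, 0.0716).

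**Figure D4:**
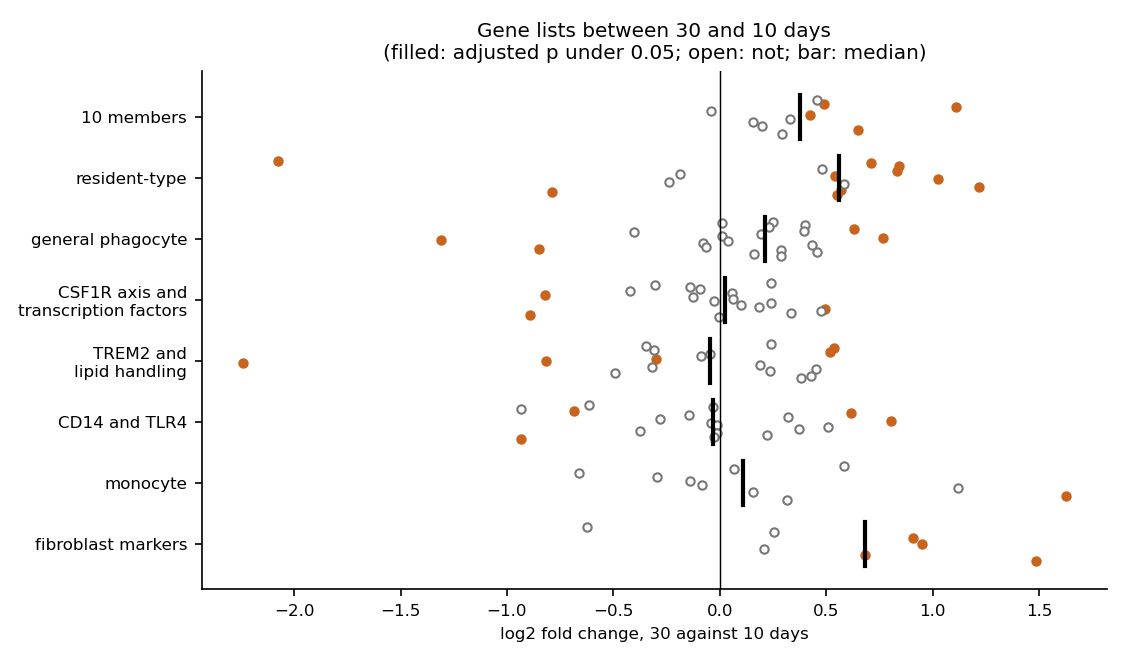
Log2 fold change at 30 against 10 days (horizontal axis) of every tested gene of the members, 6 further lists of macrophage genes and a list of fibroblast markers; filled points passed an edgeR adjusted p of 0.05, open points did not, and bars are medians. The medians are 0.38 for the members, 0.56 for the resident-type list, 0.21 for the general phagocyte list and 0.68 for fibroblast markers.

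The genes that act with Csf1r went in both directions. Of 18 tested, 11 were higher and 3 lower at 10 days, 10 and 3 at 30 days and 10 and 3 at 60 days. With library totals 16 were higher and 2 lower at 10 days, 14 and 2 at 30 days and 13 and 1 at 60 days. The genes named next are all from the higher side. Spi1, which encodes the myeloid factor PU.1, was higher by 1.64, 1.64 and 1.19, and Irf8, a factor of the monocyte lineage, by 1.83, 2.02 and 0.80, the 60-day value of Irf8 being below its 10-day value (-1.03, edgeR adjusted p 0.0015). Csf2rb, the shared receptor subunit for GM-CSF, was higher by 1.84, 1.75 and 1.52, and Cebpa by 1.02, 1.27 and 1.91. Runx1, which denervated muscle fibres express as well, was higher by 5.15, 4.26 and 1.73.

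Around Trem2, 13 of 17 partners and lipid-handling genes were higher and 2 lower at 10 days, 13 and 2 at 30 days and 14 and 1 at 60 days. Gpnmb, a glycoprotein of lipid-laden macrophages, was higher by 5.32, 3.08 and 2.37, falling between 10 and 30 days (-2.24, edgeR adjusted p 9.06e-06). The matrix cytokine gene Spp1 (3.63, 3.14 and 2.00), the beta-glucan receptor gene Clec7a (3.51, 3.46 and 3.28) and the cholesterol exporter gene Abcg1 (2.98, 2.64 and 1.74) were higher at each time. Between 60 and 10 days 7 of these 17 were lower and 3 higher, where 31.9% of all genes tested were lower and 29.1% higher. Trem2 itself was at 0.29 (edgeR adjusted p 0.322). With library totals 8 of the 17 were lower and 2 higher. At that scaling most genes called in this comparison were lower, and the median over all genes tested was -0.26. Whether this list fell more than other genes was not tested.

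Around Cd14, 12 of 18 genes of the TLR4 pathway were higher and 1 lower at 10 days, 12 and 2 at 30 days and 13 and 2 at 60 days. The receptor Tlr4 was higher by 0.90, 1.12 and 1.07. Its partner Ly96, like Cd14, was not called at 10 days (0.21, edgeR adjusted p 0.444) and was higher at 30 days (1.01) and 60 days (0.69); with library totals it was called at 10 days too (0.87, 0.00433). Lbp, which carries lipopolysaccharide to Cd14, was higher by 1.35, 1.67 and 1.64, and the related receptor Tlr2 by 1.96, 1.95 and 1.29. Ly86, a partner of the receptor CD180, was higher by 2.46, 2.18 and 1.51, and the adaptor Ticam2 by 1.70, 2.08 and 1.70. Of 10 monocyte genes tested, 7, 7 and 6 were higher and 1, 2 and 0 lower at 10, 30 and 60 days. Among the higher genes were S100a4 (1.98, 3.60 and 2.58), Plac8 (1.15, 1.30 and 0.95), the fibronectin gene Fn1 (1.48, 1.18 and 1.40), the hyaluronan receptor gene Cd44 (1.10, 1.17 and 1.45) and the chemokine receptor gene Ccr1 (1.22, 1.81 and 1.72). Nr4a1, a nuclear receptor gene active in many cells besides monocytes, was lower at 10 days (-3.70) and 30 days (-2.58). Itga4 was called lower at 30 days (-0.71), a call lost with library totals (-0.23, edgeR adjusted p 0.477).

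The genes with the most similar profiles were found as those with the smallest root-mean-square difference of log2 CPM over the 16 libraries, each gene centred on its own mean, among 10123 genes with a mean of at least 1 CPM. For Csf1r they were Pld4 (0.178), Laptm5 (0.180) and Syk (0.185), where the median over all candidates was 0.814. For Trem2 they were Tnfaip8l2 (0.188), Mnda (0.201) and Fcer1g (0.201), and for Mrc1 Clec10a (0.171), Ctss (0.211) and Mgp (0.238). For Cd163 they were Htra3 (0.301), Ptprz1 (0.304) and Smoc2 (0.350), which lay farther off than the closest genes of the other 3. All these profiles share the same libraries and groups, so the closeness is a description.

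Within groups, the members moved together in some libraries but not in all. At 30 days replicate 1 was the highest of its group for 3 members and the lowest for 2. Replicate 4 at 60 days was the highest of its group for all 10 members, and unoperated replicate 1 was the lowest of its group for 9 of 10, the exception being Aif1. The median deviation over the members was 0.62 on the log2 scale for the former and -0.48 for the latter. The coefficient of variation had a median over members of 28.2%, 16.5%, 13.2% and 34.6% at 0, 10, 30 and 60 days, and of 12.3% at 60 days without replicate 4. All 10 members were still called higher at 60 days without that library. In replicate 4 at 60 days the summed T cell markers (25.8 CPM), mast cell markers (14.2) and fibroblast markers (2853) were also the highest of the group. So were the summed neutrophil, B cell, NK cell, dendritic cell, endothelial and osteoclast markers. The summed muscle fibre markers (139632 CPM) were the lowest of the group. The part of these cells in the member values was not tested.

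**Figure D5:**
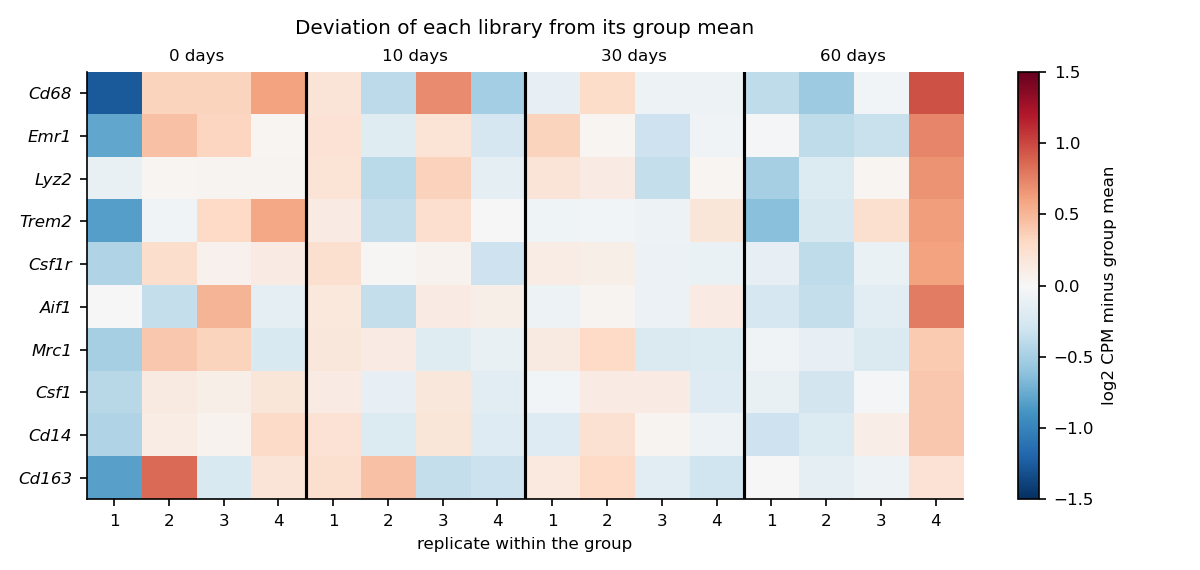
Log2 CPM of each member (rows) in each library (columns, replicates 1 to 4 within each time) minus the mean of its group; red is above and blue below the group mean. Replicate 4 at 60 days is red for all 10 members, with a median of 0.62, and unoperated replicate 1 is at or below its group mean throughout, with a median of -0.48.

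Markers of other cells went in both directions against 0 days. Of 9 endothelial and lymphatic endothelial markers 1, 1 and 3 were higher and 6, 4 and 1 lower at 10, 30 and 60 days. With library totals 1, 4 and 6 were higher and 1, 0 and 0 lower. Of 6 mast cell markers 0, 3 and 5 were higher, and 1, 5 and 6 with library totals. The 10 muscle fibre markers, which check the labelled tissue, were all present. Their summed CPM ran from 224543 to 247153 at 0 days and from 68191 to 74595 at 10 days. It ran from 114055 to 159505 at 30 days and from 139632 to 161188 at 60 days. This sum was lowest at 10 days, and the share of the RNA that came from fibres was not measured. The 10 T cell markers summed to 5.57 to 8.34, 25.8 to 35.3, 27.7 to 33.8 and 13.8 to 25.8 CPM, and 8, 9 and 5 of 9 tested were higher at 10, 30 and 60 days. Neutrophils, which also make lysozyme and CD14, had 10 markers with sums of 1.01 to 1.34, 3.05 to 8.74, 2.92 to 8.61 and 1.71 to 3.69 CPM. Of these S100a8 (6.11, 5.53 and 2.82) and S100a9 (-0.34, 0.46 and 1.20, called at 60 days, and with library totals also at 30 days) could be tested. Elane had no fragment at 0, 10 or 30 days. Dendritic cell markers were higher for 4, 6 and 4 of 7 (Zbtb46, a dendritic cell factor that endothelium also expresses, was at -0.50 and -0.73 at 10 and 30 days, called lower at both with TMM factors and at 0.15 and -0.24, not called, with library totals), NK cell markers for 4, 4 and 3 of 4 and osteoclast markers, some of which macrophages share, for 3, 3 and 3 of 4. Of the 7 B cell markers Blk alone could be tested, and it was higher at all 3 times (2.62, 1.90 and 1.34).

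Markers of stromal and mast cells were set beside the later differences of Cd163, Mrc1, Cd14 and Csf1. Between 30 and 10 days 4 of 7 fibroblast markers and 2 of 6 mast cell markers were higher, and none of either list was lower, where 23.0% of all genes tested were higher. With library totals 4 of the fibroblast and 1 of the mast cell markers were higher. Fibroblast markers, of cells that also make Csf1, summed to 474 to 992 CPM at 0 days, 879 to 2491 at 10 days, 1449 to 2290.1 at 30 days and 1364 to 2853 at 60 days. Of 9 endothelial and lymphatic endothelial markers 3 were higher at 30 than at 10 days and 7 at 60 than at 10 days, and 1 and 6 with library totals, where 29.1% of all genes were higher at 60 than at 10 days with TMM factors. Lymphatic endothelium also makes Mrc1. Of its markers, Flt4 (0.21), Pdpn (0.39) and Prox1 (-0.65) were not called between 30 and 10 days and Ccl21 was called higher (1.11, edgeR adjusted p 0.0412). With library totals Ccl21 was not called (0.95, edgeR adjusted p 0.0907) and Prox1 was called lower (-0.81, 0.0387), and with upper-quartile factors Pdpn was called higher (0.45, 0.035). The part of these cells in the member values was not tested.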

How the data were processed

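Messenger RNA of rat supraspinatus muscle was extracted with a miRNeasy kit and made into TruSeq mRNA v2 libraries, per the labels' protocols. The authors deposited 1 table of expected counts (raw fragments per gene and library, unscaled, per the file headers), and 0 columns were left unused. The submitters' processing notes name bcl2fastq 1.8.4, FastQC, TopHat2 2.0.9, Bowtie2 2.1.0.0, Cufflinks, Cuffdiff 2.1.1 and the build rn5; annotation, filters and strand setting are not given in the sources used here, so overlapping antisense transcripts could not be separated. Of 17147 genes 233 had a fractional value, none of them a member; all values were rounded to whole counts. Groups were taken from the time in each label.

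filterByExpr kept 11658 genes, and TMM factors scaled the libraries. All 16 libraries entered 1 robust edgeR quasi-likelihood model without covariates, and 6 pairs of groups were compared. The SE is the fold change divided by the square root of F, and 95% intervals use the total degrees of freedom. Ratios were tested by exact two-sided permutation with a pseudocount of 0.5 and Benjamini-Hochberg adjustment over 24 tests. The depth floor, 3 counts of the total, was 0.0752 to 0.175 CPM and covers counting error alone. The methods were tested on simulated data. Members and lists were chosen with earlier results of these data known. From each list the text names the partner genes Il34, Spi1, Tyrobp, Tlr4, Ly96, Itgam and Lyve1 and up to 4 genes with the largest called change against 0 days at a mean of at least 1 CPM. Ncf1, Cd5l, Mertk, Gas6, Itga4 and the cell type markers named singly fall outside this rule and were chosen after their values were seen. The rule also names 1 gene that is not reported here. Of 192 list entries apart from the members, 179 were in the table. Alternatives were RLE, upper-quartile and no scaling factors, DESeq2, limma-voom, other filters, no robust estimation, 2-group fits, a stricter threshold, the replicate block, the title letter, leaving out each library and, added after seeing the data, thinned counts. The work used edgeR 4.0.16 in R 4.3.3, DESeq2 1.42.0 with limma 3.58.1 for alternatives, and matplotlib 3.10.9 in python 3.11.15. Promoter sequences are from RefSeq (GRCr8), used without coordinates of the deposited files' build.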

Additional observations from a re-analysis of the deposited data

Results flagged for a closer look

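In 5 of 40 sets of 4 libraries (10 members at 4 times), the highest or lowest library stood apart from the other 3 by a gap larger than expected of 4 values, where chance alone gives about 1 in 20. Cd68 was at 8.36 CPM in replicate 2 at 30 days, above the 6.34 to 6.55 CPM of the others. Lyz2 was at 16.5 CPM in unoperated replicate 1, below 18.2 to 18.4. Aif1 was at 4.67 CPM in replicate 2 at 10 days and at 11.6 CPM in replicate 4 at 60 days. Trem2 was at 3.74 CPM in replicate 4 at 30 days. 

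Levels in operated muscle differed between times for 4 members by the test of the difference itself in edgeR. Unoperated muscle was taken at 0 days alone, so the operation and the passing of time cannot be told apart. With library totals Csf1 and Cd14 lost their calls in both comparisons, and Mrc1 lost that from 10 to 60 days. From 10 to 30 days the log2 difference was 1.11 for Cd163, 0.65 for Mrc1, 0.49 for Cd14 and 0.43 for Csf1. From 10 to 60 days it was 1.19 for Cd163, 0.58 for Cd14, 0.49 for Mrc1 and 0.47 for Csf1.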

How the results depend on the processing

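No member changed direction on either side of a call in any setting that was run. With RLE or upper-quartile factors, DESeq2, unfiltered genes, genes averaging 1 CPM or more, or no robust estimation, the counts of members called were the same as reported. Between 30 and 10 days 2 members, in place of 4, were higher with library totals, with the title letter and at an adjusted p under 0.01. Between 60 and 10 days 1 member was higher with library totals and at an adjusted p under 0.01. Thinned counts gave 3 in both comparisons. Between 30 and 10 days limma-voom gave 5 and the fit of these groups alone 6. Leaving out each library in turn gave 8 to 9 members higher at 10 days, 10 at 30 and 60 days, 2 to 6 between 30 and 10 days and 2 to 4 between 60 and 10 days, and 0 to 2 lower between 60 and 30 days. Of the single-gene values, 14 of 780 lost and 5 gained a call with another setting, and 12 and 5 of 960 when a library was left out. The share of called genes that were higher rose from 53.1% to 87.4% at 10 days with library totals. Ratio tests gave no call with a pseudocount of 2 either. With a library left out, only the differences of the ratios were computed, and no p-value.

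The column suffix 0 to 3 gave no steady pairing of the libraries: same-suffix deviations correlated by -0.0051 on average (-0.23 to 0.19). A library correlated best with its own suffix in 1 to 2 of 8 cases per comparison, except at 30 against 0 days. There it did so in 7 of 8 cases, with same-suffix correlations of 0.035 to 0.074. With the replicate block, 8, 10 and 10 members were higher at 10, 30 and 60 days and 4 were higher between 30 and 10 and between 60 and 10 days, as without it, and genes called at 30 against 10 days numbered 5397 in place of 5513. Between 60 and 30 days 1530 genes were called when these groups were fitted alone, in place of 2636. The lowest totals were those at 60 days, so depth and that group cannot be told apart; Trem2, with 8 to 25 unoperated fragments, is the member whose counts limit precision most.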
